A study of Mus musculus with 12 samples.

Results

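Glycolysis and hypoxia response genes are described here as a set of 32 genes, chosen by function: 13 glycolytic enzymes, 6 genes of glucose uptake and of the control of glycolysis, 3 genes of oxygen sensing and 10 other targets of hypoxia-inducible factor (HIF). All 32 were on the array and all 32 passed the filter on dim probes, among 26837 genes tested. Glycolysis turns glucose into pyruvate, and where pyruvate is kept out of the mitochondrion it is reduced to lactate. HIF is a transcription factor whose alpha subunit is hydroxylated by prolyl hydroxylases when oxygen is present and is then degraded by the proteasome; when oxygen is low it raises glucose transporters, glycolytic enzymes and genes of blood vessel growth and mitochondrial turnover. Mouse embryonic stem cells are known for high glycolytic flux. The arrays measured RNA, so neither HIF protein nor flux was measured.

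The series measured total RNA of mouse embryonic stem cells on 12 one-colour Agilent arrays, in 4 groups of 3. The medium of all groups held LIF, the cytokine that keeps these cells undifferentiated, and 250 nM of the fibroblast growth factor receptor inhibitor PD173074. The groups were untreated cells, cells given 250 nM 4OHT for 6 h, cells given 1 µM of the proteasome inhibitor MG132 (30 min and then 6 h), and cells given MG132 for 30 min and then 4OHT as well for 6 h. 4OHT is a tamoxifen metabolite with which engineered oestrogen receptor fusions are commonly activated; the labels name neither such a fusion nor a cell line, and the title of the series speaks of events that depend on the proteasome and on the kinase ERK. No vehicle control was named and the untreated arrays were titled 0 h, so that time and compound change together in comparisons with them. The series' design text calls the arrays of a group biological replicates, and the p-values rest on the spread between them. In bulk RNA, fewer cells of a type and less RNA per cell cannot be told apart.

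Between 49.4% and 63.2% of probes were well above background per array, and no spot was saturated. All 10 embryonic stem cell markers were above background in all 4 groups, but their summed level (relative to each array's 75th percentile, linear scale) was 871 to 902 on untreated arrays, 808 to 834 with 4OHT, 469 to 542 with both compounds and 503 to 517 with MG132 alone. Of 12 fibroblast and feeder cell markers, 9 were above background on all untreated arrays (summed level 89 to 113), 6 with 4OHT (129 to 164), 8 with MG132 (92.1 to 96.1) and 8 with both (109 to 121); Lum was not above background on any array, and Col3a1 was above it on an array only with both compounds. Of 11 primitive endoderm markers, 11 were above background on all untreated arrays (39.4 to 54.0), 10 with 4OHT (29.1 to 51.4), 11 with MG132 (36.0 to 54.4) and 11 with both (45.1 to 60.5). The part of these markers in the results was not tested. Replicate 3 stood apart in 6 members: with the groups accounted for, its arrays were higher in Hk2 (0.24 log2) and P4ha2 (0.50) and lower in Pfkp (-0.52), Slc2a1 (-0.57), Bnip3 (-0.81) and Ndrg1 (-0.43), where 10.1% of all genes were called. The arrays lay on a pair of slides, with untreated, 4OHT and MG132 replicates 1 and 2 on slide 1 and MG132 replicate 3 and all arrays of both compounds on slide 2.

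MG132 lowered most of the set. Against untreated cells, 17 of the 32 genes fell, 3 rose and 12 were not called, and in the presence of 4OHT 19 fell, 4 rose and 9 were not called; the 4 include Car9, whose probes disagree in direction. The deepest falls were in the mitophagy receptor Bnip3, to 12% of the untreated mean, in the pyruvate dehydrogenase kinase Pdk1, to 23.5%, and in the glycolytic enzyme Tpi1, to 27.1%. The regulator Pfkfb4, the collagen hydroxylase subunit P4ha2 and the vasoactive peptide gene Adm rose. Adm was dim, and the size of its change is uncertain. Genes were called where limma's p-value, adjusted over all genes by the Benjamini-Hochberg method, was below 0.05; over all genes, 43.1% were called for MG132 against untreated cells (19.0% lower, 24.1% higher) and 50.2% for MG132 with 4OHT against 4OHT (20.9% lower, 29.4% higher). Among the 32 genes the shares called were 62.5% and 71.9%. Centred on each array's median instead of its 75th percentile, 26.8% of all genes called with MG132 alone were higher in place of 56.0%, and 38.6% in place of 58.4% in the presence of 4OHT. The untreated and MG132 arrays did not overlap for 29 of the 32 genes, some of them not called. The share over all genes was not counted, so this is not read as a trait of the set. Embryonic stem cell markers moved the same way, with 9 of 10 lower with MG132 alone and 8 of 10 in the presence of 4OHT; the part of this in the result was not tested.

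The promoters of 6 genes that changed with MG132 are printed for their sequence, from RefSeq on the GRCm38.p6 assembly. Each is the window from 250 bases before to 50 after the annotated start, 5′ to 3′ on the gene's strand. Capitals mark ACGTG or GCGTG on either strand (read as CACGT or CACGC on the other), the core letters of the hypoxia response element, with overlapping matches merged. Bnip3 (chr7:138909457-138909756, minus strand) held 4 such stretches, Pdk1 (chr2:71872974-71873273, plus strand) 2, Ankrd37 (chr8:45999801-46000100, minus strand) 3 and Tpi1 (chr6:124814109-124814408, minus strand) 0; these 4 genes fell with MG132. P4ha2 (chr11:54100674-54100973, plus strand) held 4 and was higher with MG132. Adm (chr7:110627407-110627706, plus strand) held 2. It was called higher with MG132 alone, but not in the presence of 4OHT, and was dim, so that the size of its change is uncertain. Pdk1 has a second annotated start, not printed, whose window held 0. Pfkfb4, Hk2, Pfkl and Slc2a1 changed more with MG132 than Ankrd37 and P4ha2. They are not printed, and their windows held 1, 2, 1 and 2.
Bnip3: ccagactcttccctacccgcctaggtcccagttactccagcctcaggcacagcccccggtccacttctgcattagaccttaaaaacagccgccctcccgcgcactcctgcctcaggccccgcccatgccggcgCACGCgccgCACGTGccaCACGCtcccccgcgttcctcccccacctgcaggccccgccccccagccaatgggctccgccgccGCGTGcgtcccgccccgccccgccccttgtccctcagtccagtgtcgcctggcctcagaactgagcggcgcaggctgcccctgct
Pdk1: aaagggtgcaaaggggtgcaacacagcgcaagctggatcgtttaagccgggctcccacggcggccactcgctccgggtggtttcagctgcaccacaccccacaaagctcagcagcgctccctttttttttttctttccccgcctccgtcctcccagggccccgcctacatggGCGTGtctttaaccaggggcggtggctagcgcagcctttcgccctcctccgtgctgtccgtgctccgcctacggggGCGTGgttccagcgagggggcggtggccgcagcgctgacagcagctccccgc
Ankrd37: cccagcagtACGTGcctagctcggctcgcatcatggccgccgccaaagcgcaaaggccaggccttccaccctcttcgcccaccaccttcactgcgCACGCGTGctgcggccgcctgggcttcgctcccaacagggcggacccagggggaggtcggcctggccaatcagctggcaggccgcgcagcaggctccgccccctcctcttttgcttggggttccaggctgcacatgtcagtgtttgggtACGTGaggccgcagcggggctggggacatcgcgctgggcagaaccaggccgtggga
Tpi1: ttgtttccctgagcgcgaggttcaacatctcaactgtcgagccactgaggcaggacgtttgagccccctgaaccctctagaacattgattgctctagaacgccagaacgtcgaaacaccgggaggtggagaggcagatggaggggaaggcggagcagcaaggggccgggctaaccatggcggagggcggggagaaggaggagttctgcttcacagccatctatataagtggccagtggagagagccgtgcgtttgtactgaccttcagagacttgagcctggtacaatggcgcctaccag
P4ha2: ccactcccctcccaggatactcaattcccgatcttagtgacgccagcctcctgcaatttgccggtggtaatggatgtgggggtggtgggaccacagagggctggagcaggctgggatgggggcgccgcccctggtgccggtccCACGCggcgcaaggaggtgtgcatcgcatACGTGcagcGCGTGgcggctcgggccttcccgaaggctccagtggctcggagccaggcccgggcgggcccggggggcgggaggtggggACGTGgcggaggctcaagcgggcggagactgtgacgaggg
Adm: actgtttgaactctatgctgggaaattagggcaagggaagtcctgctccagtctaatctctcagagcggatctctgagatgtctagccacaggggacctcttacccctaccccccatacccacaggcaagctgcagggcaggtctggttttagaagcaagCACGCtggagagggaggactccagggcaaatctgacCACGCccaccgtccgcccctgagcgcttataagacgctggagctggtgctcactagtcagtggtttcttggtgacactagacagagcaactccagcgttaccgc

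Entries were found for 30 of the 32 genes, with 42 promoters between them; Slc2a3 and Ndrg1 had none. The letters occurred in 33 of the 42 (78.6%) and in at least 1 promoter of 28 genes, against 14380 of 32851 promoters of all genes (43.8%) and 12628 of 27025 genes. Of the genes that fell in both MG132 comparisons, 16 had entries, and 16 of their 22 promoters (72.7%) held the letters. A match is a description of these windows and no measurement of binding.

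The glycolytic enzymes made up 8 of the 17 falls with MG132, and none of the 13 rose. Their median change was -0.68 on the log2 scale against 0.07 for all genes, and in the presence of 4OHT, where 9 fell, it was -0.67 against 0.13. Levels are given here as log2 units above or below the array's own 75th percentile, replicates 1 to 3 in order, and changes as log2 differences ± standard error over 3 against 3 arrays. Tpi1, the triose phosphate isomerase, was at 6.34, 6.40 and 6.43 on untreated arrays, at 6.28, 6.24 and 6.11 with 4OHT, at 4.14, 4.73 and 4.66 with MG132 and at 4.58, 4.60 and 4.26 with both. All 6 arrays with MG132 lay below all 6 without. The change was -1.88 ± 0.16 with MG132 (limma, adjusted p = 1.2e-05) and -1.73 ± 0.16 in the presence of 4OHT (1.4e-05), and each of its 3 probes fell in both comparisons, by 1.76 to 1.88 and by 1.73 to 1.92.

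Hk2, a hexokinase that commits glucose to the cell, was at 4.09, 4.11 and 4.35 on untreated arrays, 4.29, 4.50 and 4.67 with 4OHT, 2.55, 2.50 and 2.81 with MG132 and 3.18, 3.11 and 3.28 with both. MG132 separated the arrays, and those with both compounds lay above those with MG132 alone. The falls were -1.56 ± 0.13 (adjusted p = 1.2e-05) and, with 4OHT present, -1.3 ± 0.13 (2.9e-05). Pfkl, a phosphofructokinase subunit at the committed step, was at 3.65, 3.61 and 3.53 untreated, 3.53, 3.62 and 3.38 with 4OHT, 2.07, 2.25 and 1.95 with MG132 and 1.62, 1.74 and 1.47 with both. The lowest of the 4 groups was the one with both compounds, and its arrays overlapped with no other group. Pfkl changed by -1.5 ± 0.11 (adjusted p = 6.2e-06) and by -1.90 ± 0.11 (1.1e-06). For Pfkp, a second phosphofructokinase subunit, the arrays read 4.31, 4.42 and 3.92 untreated, 5.24, 5.17 and 4.75 with 4OHT, 3.49, 3.42 and 2.82 with MG132 and 3.96, 4.05 and 3.45 with both. Replicate 3 was the lowest array of each group, and the arrays with both compounds overlapped with the untreated and the MG132 arrays. Its falls were -0.97 ± 0.23 (0.0072) and -1.24 ± 0.23 (0.0016).

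Hk1, the more widely expressed hexokinase, was at 3.03, 2.95 and 3.23 on untreated arrays, 2.12, 1.47 and 2.15 with 4OHT, 2.26, 2.27 and 2.44 with MG132 and 1.31, 1.28 and 1.54 with both. Untreated arrays were the highest, and the 4OHT and double-treated arrays overlapped. MG132 changed it by -0.75 ± 0.18 (adjusted p = 0.0063) and, in the presence of 4OHT, by -0.53 ± 0.18 (0.029). The second call was lost when 1 array was left out, with values of -0.50 to -0.41 and adjusted p from 0.081 to 0.094 without 4OHT replicate 1 or 3 or without replicate 1 or 2 of both compounds. A second Hk1 probe gave 0.00 and -0.03, and the mean over both probes was not called in either comparison. The mutase Pgam1 (-0.74 ± 0.08), the lactate dehydrogenase subunit Ldha (-0.68 ± 0.12) and the pyruvate kinase Pkm (-0.53 ± 0.09) also fell with MG132, with adjusted p from 5.3e-05 to 0.0013. With 4OHT present their falls were -0.83, -0.98 and -0.67. Aldolase A, Aldoa, was called only in that comparison (-0.24 ± 0.08, adjusted p = 0.022). It lost the call without 4OHT replicate 2 or without replicate 2 or 3 of both compounds, at -0.24 to -0.20 with adjusted p from 0.050 to 0.079.

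The other enzymes were not called for MG132 against untreated cells. Their untreated and MG132 arrays did not overlap, but no share over all genes was formed for this. It is therefore not read as a change. Changes were -0.34 ± 0.13 for the enolase Eno1 (adjusted p = 0.052), -0.25 ± 0.23 for the phosphoglycerate kinase Pgk1, -0.25 ± 0.10 for the glucose phosphate isomerase Gpi1, -0.13 ± 0.08 for Aldoa and -0.11 ± 0.08 for Gapdh, the glyceraldehyde phosphate dehydrogenase. Of the 9 enzymes with more than 1 probe, the brightest probe, which stood for the gene, gave the smallest change in 6 with MG132 and in 7 in the presence of 4OHT. For Gapdh 5 of 6 probes fell with MG132, with changes from -0.36 to -0.11, and the uncalled probe was the one that stood for the gene. For Eno1 the second probe was called at -0.57, and for Ldha the probes gave -1.56 and -0.68.

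**Figure D1:**
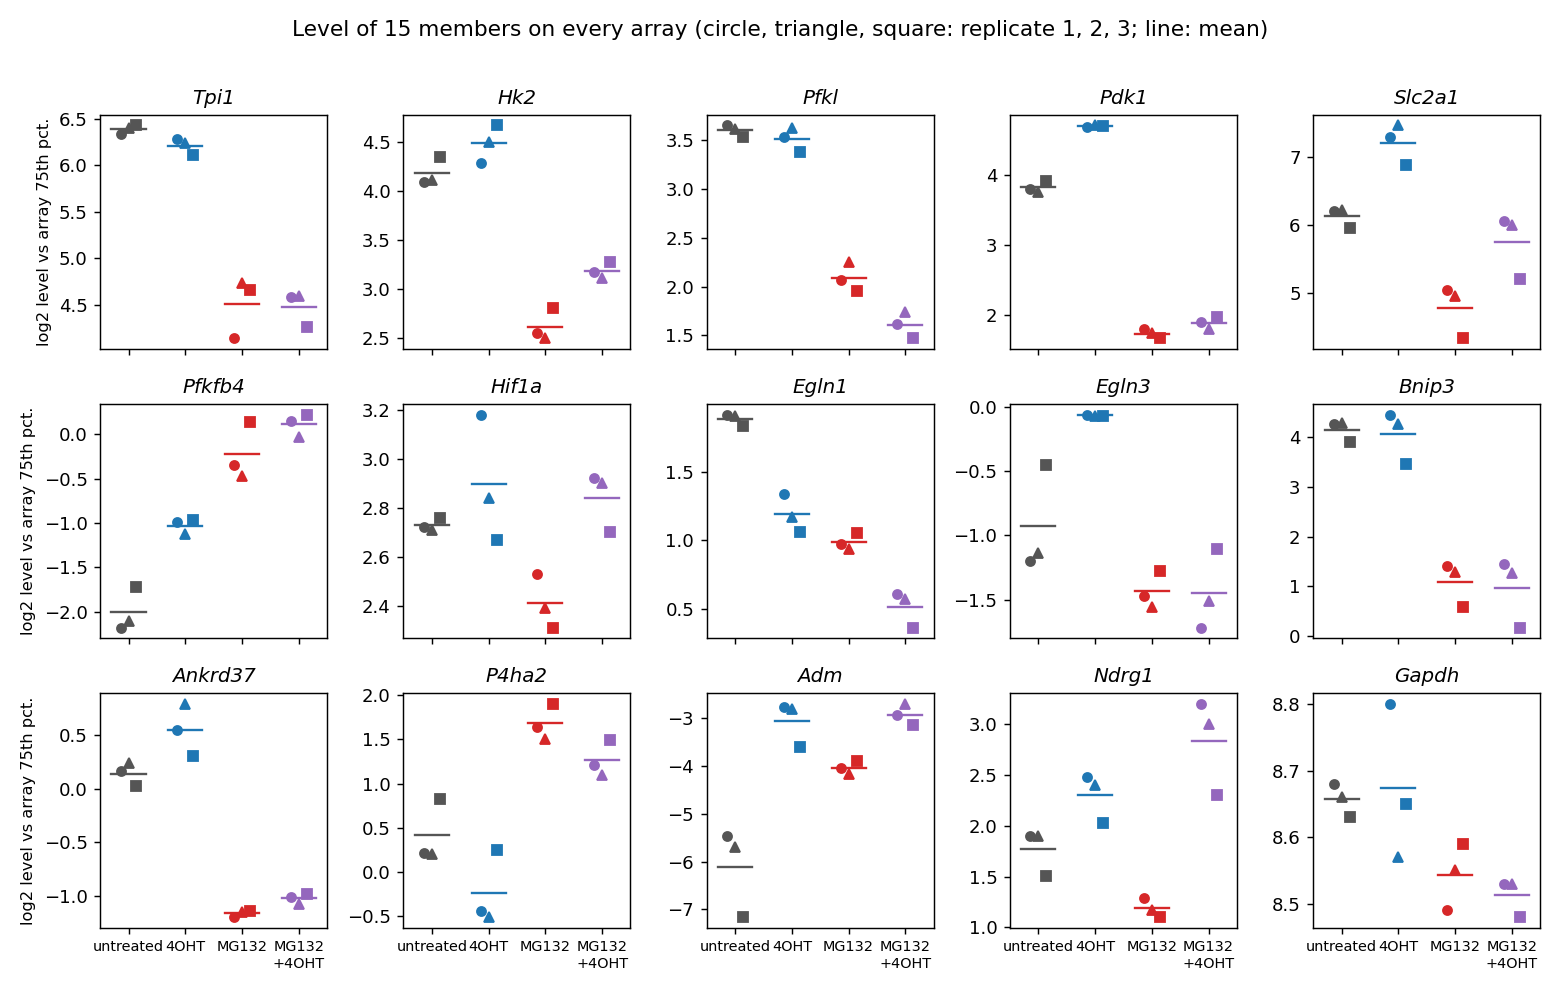
Levels of 15 of the 32 genes on each of the 12 arrays, as log2 units relative to the array's 75th percentile on the vertical axis; circles, triangles and squares are replicates 1, 2 and 3, and the horizontal lines are the means of the 3 arrays of a group. Bnip3, Pdk1, Tpi1, Hk2 and Pfkl lie lower in both groups with MG132 than in both groups without, while Pfkfb4 and P4ha2 lie higher.

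Among the genes of glucose uptake and control, 4 of 6 fell with MG132 and 1 rose, with the same counts in the presence of 4OHT. The share called was 83.3% in each, against 43.1% and 50.2% of all genes. Pdk1, the kinase that inhibits pyruvate dehydrogenase, was at 3.80, 3.75 and 3.91 untreated, 4.68, 4.71 and 4.70 with 4OHT, 1.79, 1.73 and 1.66 with MG132 and 1.89, 1.80 and 1.96 with both. No group overlapped with any other, and the 4OHT arrays were the highest. The falls were -2.09 ± 0.08 (adjusted p = 2.3e-07) and -2.81 ± 0.08 (2.5e-08), to 23.5% of untreated cells and to 14.2% of cells with 4OHT. Of its 4 probes, 3 fell in both comparisons, by 2.09 to 2.24 and by 2.81 to 3.03, and the other gave -0.18 and -0.07. Slc2a1, the glucose transporter GLUT1, was at 6.21, 6.22 and 5.96 untreated, 7.29, 7.47 and 6.88 with 4OHT, 5.05, 4.95 and 4.33 with MG132 and 6.06, 6.00 and 5.20 with both. Its 4OHT arrays were the highest and its MG132 arrays the lowest, while those with both compounds overlapped with untreated ones. MG132 changed it by -1.35 ± 0.27 (0.0023) and, with 4OHT present, by -1.46 ± 0.27 (0.0012).

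Smaller falls were measured in Slc2a3, the transporter GLUT3 (-0.44 ± 0.13, adjusted p = 0.018, and -0.65 ± 0.13), and in Pdk3, a related kinase. A second Slc2a3 probe was called in neither comparison (-0.27 ± 0.37 and -0.87 ± 0.37). The mean over the Slc2a3 probes was not called against untreated cells (-0.36). Pdk3 was at 0.65, 0.71 and 0.53 untreated, 0.54, 0.56 and 0.58 with 4OHT, 0.39, 0.37 and 0.05 with MG132 and -0.17, -0.10 and -0.24 with both. The double-treated arrays were the lowest, and those with MG132 alone lay between them and the rest. Pdk3 fell by 0.36 ± 0.11 (0.018) and by 0.73 ± 0.11 (0.00029). Against untreated cells both calls rested on single arrays: Slc2a3 lost it without untreated replicate 1 or 2 or MG132 replicate 2 (-0.42 to -0.40, adjusted p from 0.056 to 0.064), and Pdk3 without untreated replicate 1 or 2 or MG132 replicate 3 (-0.35 to -0.25, 0.052 to 0.070).

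Pfkfb4, an enzyme that makes and breaks down the sugar bisphosphate that activates phosphofructokinase, went the other way. It was at -2.18, -2.10 and -1.72 untreated, -0.99, -1.13 and -0.97 with 4OHT, -0.35, -0.47 and 0.14 with MG132 and 0.15, -0.03 and 0.22 with both. Untreated arrays were the lowest and 4OHT arrays the next, below every array with MG132. The rises were 1.77 ± 0.17 (adjusted p = 2.9e-05) and 1.15 ± 0.17 (0.00035). Its relative Pfkfb3 was at 0.82, 0.78 and 0.86 untreated, 1.72, 1.51 and 0.70 with 4OHT, 0.94, 0.89 and 0.94 with MG132 and 1.84, 1.85 and 1.77 with both. MG132 alone shifted it by 0.10 ± 0.21 (0.73), which was not called, and MG132 with 4OHT present by 0.52 ± 0.21 (0.063).

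Of the oxygen sensing genes, Egln1 was the one that fell in both MG132 comparisons. Egln1, the main prolyl hydroxylase acting on HIF, was at 1.92, 1.91 and 1.84 untreated, 1.34, 1.17 and 1.06 with 4OHT, 0.97, 0.94 and 1.05 with MG132 and 0.61, 0.57 and 0.36 with both. The 4OHT and MG132 groups lay next to each other, between the untreated and the double-treated arrays, and no groups overlapped. The changes were -0.91 ± 0.10 (adjusted p = 7.2e-05) and -0.68 ± 0.10 (0.00035). Egln3, a prolyl hydroxylase that is itself a HIF target, was at -1.20, -1.14 and -0.45 untreated, -0.06, -0.07 and -0.07 with 4OHT, -1.47, -1.56 and -1.28 with MG132 and -1.72, -1.51 and -1.11 with both. Its 4OHT arrays were the highest. MG132 changed it by -0.51 ± 0.21 (0.071) without 4OHT and by -1.38 ± 0.21 (0.00037) with it. The RNA for the HIF subunit itself, Hif1a, was at 2.72, 2.71 and 2.76 untreated, 3.18, 2.84 and 2.67 with 4OHT, 2.53, 2.39 and 2.31 with MG132 and 2.92, 2.90 and 2.70 with both. The MG132 arrays were the lowest, and the other groups overlapped. Neither MG132 change was called, at -0.32 ± 0.13 (0.075; 95% interval -0.61 to -0.03) and -0.06 ± 0.13 (0.75; -0.35 to 0.24).

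The other HIF targets went both ways. With MG132 4 of 10 fell and 2 rose, 1 of them the dim Adm (60% called, against 43.1% of all genes). With 4OHT present 4 fell and 3 rose, 1 of them Car9, whose second probe fell (70%, against 50.2%). Over all genes 24.1% and 29.4% were called higher, so the rises are near the background. Bnip3 was at 4.27, 4.29 and 3.89 untreated, 4.45, 4.27 and 3.45 with 4OHT, 1.42, 1.28 and 0.58 with MG132 and 1.45, 1.26 and 0.17 with both. Groups without MG132 overlapped with each other, as did groups with it, and replicate 3 was the lowest array of each group. The falls were -3.06 ± 0.37 (adjusted p = 0.00012) and -3.10 ± 0.37 (8.8e-05), which is 8.35-fold and 8.55-fold. Ankrd37, an ankyrin repeat gene induced by HIF, was at 0.16, 0.24 and 0.02 untreated, 0.55, 0.79 and 0.30 with 4OHT, -1.20, -1.15 and -1.14 with MG132 and -1.01, -1.08 and -0.98 with both. No groups overlapped. MG132 lowered it by 1.3 ± 0.12 (2.3e-05) and by 1.57 ± 0.12 (5.3e-06). The histone demethylase Kdm3a fell by 0.68 ± 0.10 (0.00046) and by 0.76 ± 0.10 (0.00018). Higd1a, a protein of the mitochondrial inner membrane, fell by 0.47 ± 0.14 (0.018) and by 0.52 ± 0.14 (0.0094). The first Higd1a call was lost without untreated replicate 3 or MG132 replicate 1 or 2, at -0.45 to -0.39 with adjusted p from 0.053 to 0.067.

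P4ha2, which encodes a subunit of the collagen prolyl hydroxylase, was at 0.22, 0.20 and 0.83 untreated, -0.44, -0.51 and 0.25 with 4OHT, 1.64, 1.5 and 1.90 with MG132 and 1.21, 1.1 and 1.49 with both. All arrays with MG132 lay above all arrays without. The rises were 1.27 ± 0.24 (adjusted p = 0.0017) and 1.5 ± 0.24 (0.00048). Its sister subunit P4ha1 was not called, at -0.21 ± 0.16 and -0.37 ± 0.16. Adm, which encodes adrenomedullin, a peptide that widens blood vessels, was at -5.47, -5.70 and -7.16 untreated, -2.76, -2.80 and -3.59 with 4OHT, -4.05, -4.17 and -3.90 with MG132 and -2.93, -2.70 and -3.15 with both. It was dim throughout, 2 of the 3 untreated arrays were well above background, and it passed the filter through the treated groups, where it was higher. The fitted difference with MG132 was 2.07 ± 0.39 (0.0019), or 1.55 without untreated replicate 3, the array that was not above background, and the change in the presence of 4OHT was 0.12 ± 0.39 (0.82). After normexp background correction the first was 0.48, so its size is uncertain.

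Vegfa, the growth factor of blood vessels, was not called with MG132 alone on its brightest probe (0.36 ± 0.16, adjusted p = 0.098), while its other 3 probes were called higher, with changes up to 1.24. With 4OHT present all 4 probes rose, from 0.76 ± 0.16 on the brightest (0.003) to 1.75. The probes of Car9, a carbonic anhydrase of the cell surface, disagreed. The brighter probe was at -2.89, -3.12 and -3.01 untreated, -3.05, -2.85 and -2.84 with 4OHT, -3.03, -3.11 and -2.76 with MG132 and -2.30, -2.45 and -2.21 with both. It changed by 0.04 ± 0.12 with MG132 and by 0.59 ± 0.12 (0.0024) with 4OHT present, and the second probe by -1.21 ± 0.22 (0.0015) and -1.38 ± 0.22 (0.00054), so no direction is given for Car9. Ndrg1, a stress-responsive gene, was at 1.90, 1.90 and 1.51 untreated, 2.48, 2.40 and 2.03 with 4OHT, 1.29, 1.17 and 1.1 with MG132 and 3.20, 3.00 and 2.30 with both. The double-treated and 4OHT arrays overlapped and the MG132 arrays were the lowest. MG132 changed it by -0.59 ± 0.22 (0.057) without 4OHT and by 0.53 ± 0.22 (0.071) with it, neither of them called.

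**Figure D2:**
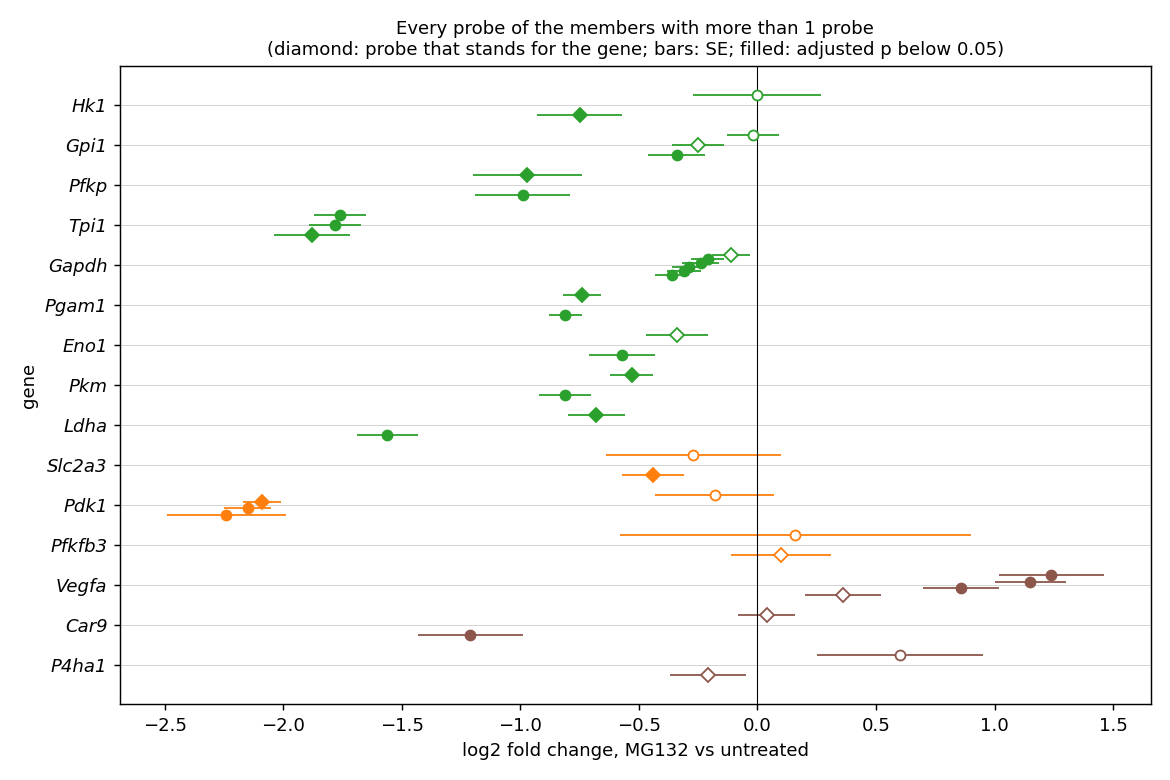
Change with MG132 against untreated cells (log2, horizontal axis) for every passing probe of the 15 members with more than 1, by gene; diamonds are the probes that stand for a gene, circles its other probes, bars standard errors, and filled symbols are called at an adjusted p below 0.05. The 3 Tpi1 probes lie together from -1.88 to -1.76, while the Car9 probes (0.04 and -1.21) and the Hk1 probes (-0.75 and 0.00) lie apart.

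The comparisons of MG132 alone and of MG132 in the presence of 4OHT use different arrays and can be set side by side. Across the 32 genes the changes had the same sign in 30 (93.8%), against 78.3% of all genes, with Pearson's r = 0.87 and Spearman's rho = 0.90 across genes, against 0.74 and 0.72 for all genes; genes are not independent replicates, and this is a description. All 17 genes that fell with MG132 alone also fell with 4OHT present, a count for which no share over all genes was formed. Among them is Hk1, on its brighter probe only, whose call with 4OHT present was lost without single arrays. With slide as a block, 13 members were called in the presence of 4OHT in place of 23: Hk1, Pfkp, Aldoa, Slc2a1, Slc2a3, Pdk3, Pfkfb4, Car9, P4ha2 and Higd1a lost the call, at changes such as -0.60 for Pfkp, -0.79 for Slc2a1, 0.60 for Pfkfb4 and 1.17 for P4ha2. Only the MG132 group had arrays on both slides, so the slide term rests on its replicate 3 against its replicates 1 and 2. A slide difference and a deviation of that array cannot be told apart. With slide and replicate as blocks together, added after seeing the data, Pfkp, Slc2a1, Slc2a3, Pfkfb4 and P4ha2 kept the call. Hk1, Aldoa, Pdk3, Car9 and Higd1a did not. The 4OHT arrays and those of both compounds shared no slide, so no value within a slide could be formed. For MG132 against untreated cells, a slide block gave 20 members called and the arrays of slide 1 alone gave 19.

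4OHT moved fewer of the genes and moved them both ways. Against untreated cells 7 of the 32 rose and 2 fell; the share called was 28.1%, with 28.6% for all genes (13.9% higher, 14.7% lower), so the count of calls is near the background. The arrays of the 2 groups did not overlap for 16 genes, a count for which no share over all genes was formed. By role, 3 of 6 genes of uptake and control rose, 2 of 10 other HIF targets, 1 of 3 oxygen sensing genes and 1 of 13 enzymes. The HIF targets were Ankrd37 and Adm, which was dim and kept by the filter through the treated groups. The calls of Ankrd37 and of the enzyme, Pfkp, were lost when single arrays were left out. A difference between roles was not tested. Centred on the median, 29.5% of all genes called were higher in place of 48.7%, and after normexp correction 68.5%. Without 4OHT replicate 3, 14 members were called in place of 9.

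Of the enzymes, Pfkp rose by 0.84 ± 0.23 (limma, adjusted p = 0.022), with all 4OHT arrays above all untreated ones. Leaving out untreated replicate 3, 4OHT replicate 1 or 4OHT replicate 2 ended the call, at 0.69 to 0.78 with adjusted p from 0.066 to 0.080. Hk1 fell by 1.16 ± 0.18 (0.0008), to 44.7% of untreated cells, on the brighter probe; the second probe gave 0.36 ± 0.27 (0.36), and the mean of both gave -0.40 (0.19). The other 11 enzymes were not called, and their changes lay between -0.19 and 0.30. The median over the 13 was 0.17, and 0.00 with median centring.

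The glucose transporter Slc2a1 rose by 1.09 ± 0.27 (adjusted p = 0.011), which is 2.12-fold, the kinase Pdk1 by 0.88 ± 0.08 (3.7e-05) and the regulator Pfkfb4 by 0.97 ± 0.17 (0.0019). For each, all 4OHT arrays lay above all untreated arrays. Pfkfb3 was higher on 4OHT replicates 1 and 2 (1.72 and 1.51) than on any untreated array but not on replicate 3 (0.70), and its change of 0.48 ± 0.21 was not called (0.11). Both prolyl hydroxylases changed, in opposite directions: Egln1 fell by 0.70 ± 0.10 (0.00057) and Egln3 rose by 0.86 ± 0.21 (0.011). Hif1a changed by 0.17 ± 0.13 (0.38; 95% interval -0.12 to 0.46). Adm, dim and kept by the filter through the treated groups, had the largest fitted change of the 32 genes in this comparison, 3.06 ± 0.39 (0.00027). The change was 2.54 without untreated replicate 3 and 0.99 after normexp correction, where Hk1 (-1.12) and Slc2a1 (1.05) changed more. Its size is therefore uncertain. Ankrd37 rose by 0.41 ± 0.12 (0.029), a call that ended when untreated replicate 1 or 3, or 4OHT replicate 1 or 2, was left out (0.29 to 0.42, adjusted p from 0.054 to 0.093). Bnip3, which fell with MG132, changed by -0.10 ± 0.37 (0.88; -0.92 to 0.73).

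In 4 genes the compounds went opposite ways against the same untreated arrays, rising with 4OHT and falling with MG132: Pfkp, Slc2a1, Pdk1 and Ankrd37. The 4OHT calls of Pfkp and Ankrd37 were lost when single arrays were left out. Pfkfb4 and the dim Adm rose with either, and Hk1 (on its brighter probe) and Egln1 fell with either. These counts share the untreated arrays, and no share over all genes was formed for them.

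**Figure D3:**
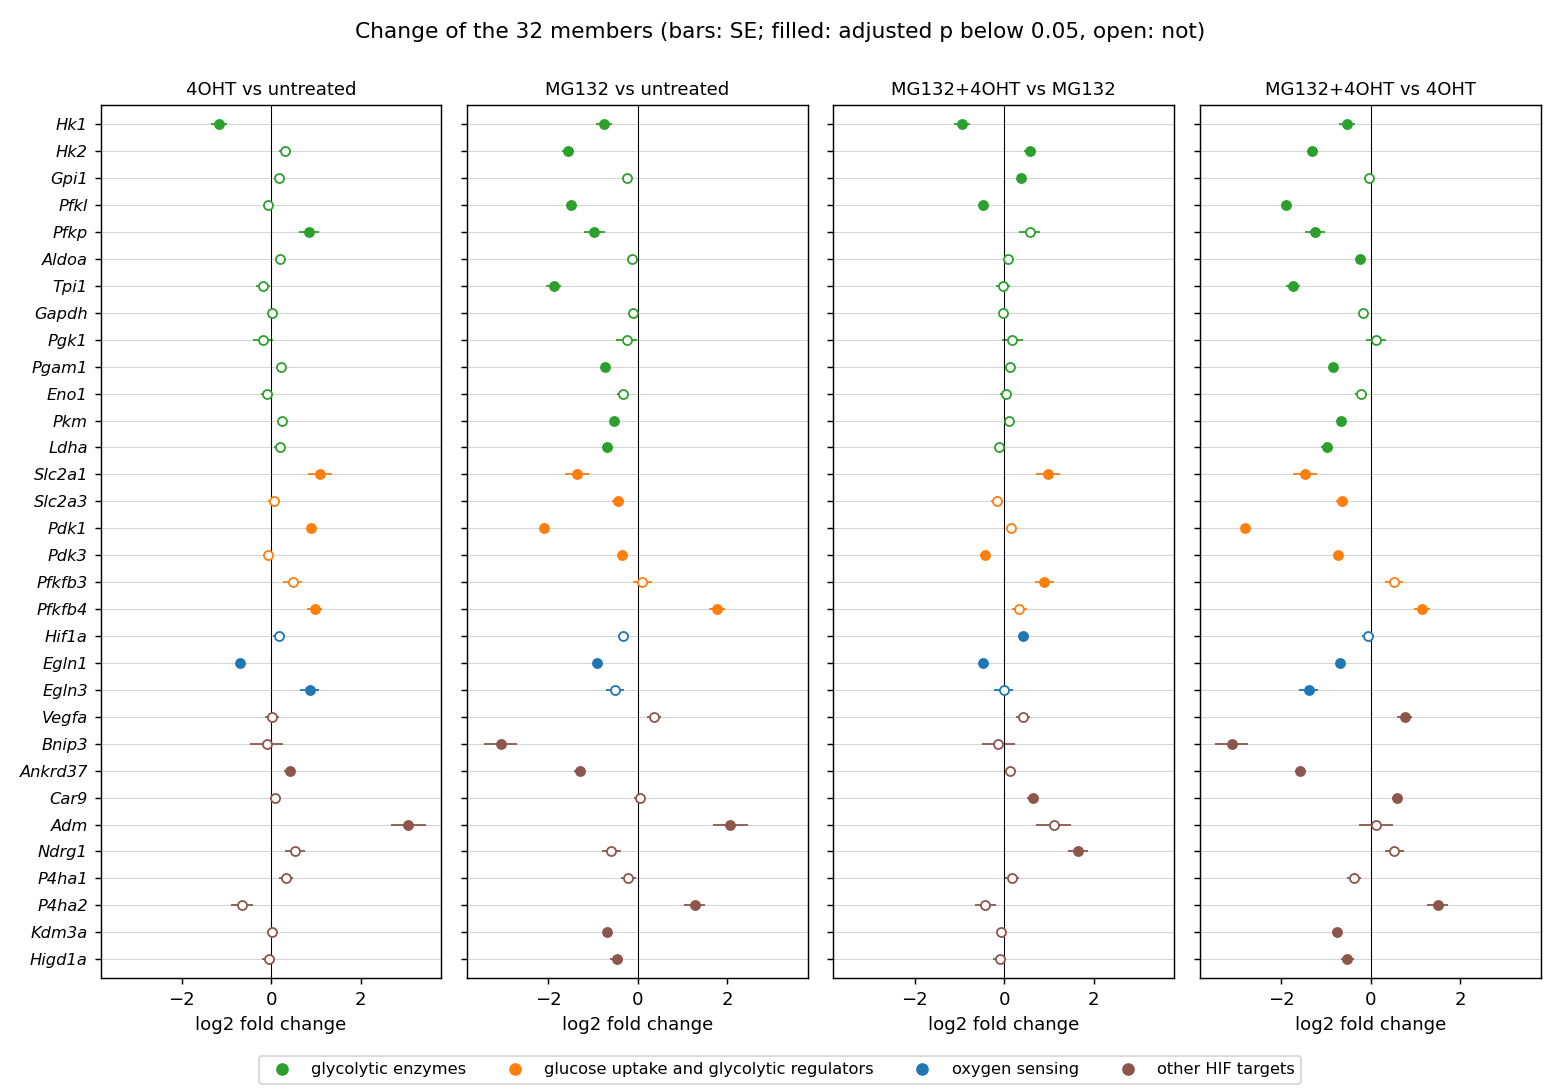
Log2 change of each of the 32 genes in 4 comparisons, ordered by role; points are changes, bars are standard errors from limma, filled points are called at an adjusted p below 0.05 and colours mark the role. In the MG132 comparisons most points lie left of 0, and in the 4OHT comparisons the calls lie on both sides.

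With MG132 present, 4OHT raised 7 of the 32 genes and lowered 4, a share of 34.4% against 26.5% of all genes (13.9% higher, 12.6% lower). Ndrg1 rose most, by 1.65 ± 0.22 (adjusted p = 0.00067), or 3.14-fold, with all double-treated arrays above all MG132 arrays. Slc2a1 rose by 0.97 ± 0.27 (0.023), Pfkfb3 by 0.90 ± 0.21 (0.011), Hk2 by 0.57 ± 0.13 (0.010), Hif1a by 0.43 ± 0.13 (0.035) and Gpi1 by 0.38 ± 0.10 (0.025). The brighter Car9 probe rose by 0.64 ± 0.12 (0.0039), and the second gave -0.06 ± 0.22. Hk1 fell by 0.94 ± 0.18 (0.0039), to 52.0%, Pfkl by 0.48 ± 0.11 (0.011), Egln1 by 0.47 ± 0.10 (0.0074) and Pdk3 by 0.44 ± 0.11 (0.013). The second Hk1 probe again differed, at 0.33 ± 0.27. Pdk1 and Egln3, which rose with 4OHT alone, changed by 0.16 ± 0.08 (0.19) and -0.01 ± 0.21 (0.98). Adm changed by 1.11 ± 0.39 (0.061). On 3 Vegfa probes a rise was called, of up to 1.03, and not on the brightest (0.42 ± 0.16, 0.081).

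The slides differed in this comparison: 2 of the 3 MG132 arrays lay on the other slide from all arrays with both compounds. With slide as a block 5 members were called in place of 11: Ndrg1 (1.74), Slc2a1 (1.42), Hk1 (-1.06), Egln1 (-0.54) and Vegfa (0.75). Within slide 2, where MG132 has 1 array that is assumed to vary like the others, 2 were called, Hk1 (-1.06) and Pfkfb3 (0.88). Gpi1 lost its call without MG132 replicate 1 or replicate 1 or 2 of both compounds (0.28 to 0.38, adjusted p from 0.071 to 0.089), and Slc2a1 without MG132 replicate 3 or replicate 1 or 2 of both compounds (0.75 to 0.85, 0.066 to 0.085). Pdk3 lost it without MG132 replicate 1 or 2 (-0.39 to -0.38, 0.054 to 0.055). Hif1a lost it without any 1 of untreated replicates 1 and 2, MG132 replicates 2 and 3, and replicates 1 and 2 of both compounds (0.38 to 0.43, 0.053 to 0.11).

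By the probe that stood for each gene, Slc2a1 was the 1 gene that rose with 4OHT both without and with MG132. Its call with MG132 was lost without single arrays. Hk1 (on its brighter probe) and Egln1 were the 2 that fell in both. The second Pfkp probe was also called higher in both, at 0.88 and 0.67, while the probe that stood for Pfkp gave 0.57 ± 0.23 with MG132, not called. The 4OHT changes of the 32 genes in the comparisons, which share no array, had the same sign in 25 genes (78.1%), against 70.6% of all genes, with r = 0.68 and rho = 0.71 across genes, against 0.63 and 0.55. On the probes that stood for them, Gapdh, Pgk1, Eno1 and P4ha1 were called in none of the 4 comparisons. Other probes differed: 5 of 6 Gapdh probes were called lower in both MG132 comparisons. So was the second Eno1 probe, at -0.57 and, with 4OHT present, -0.87. The mean over the P4ha1 probes was called higher with 4OHT alone (0.63).

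**Figure D4:**
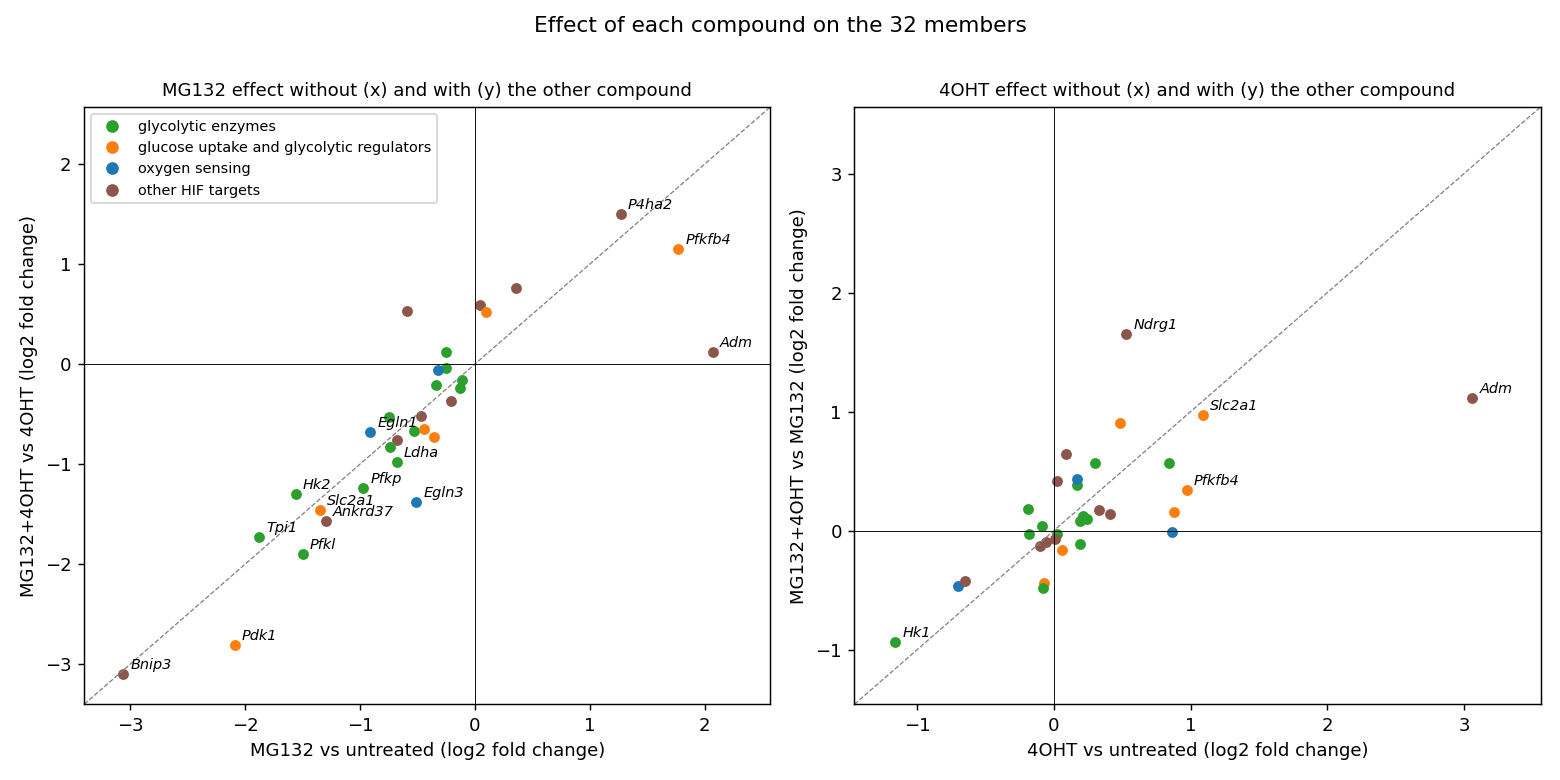
Each point is 1 of the 32 genes: on the left the log2 change with MG132 without 4OHT (horizontal) and with it (vertical), on the right the change with 4OHT without MG132 (horizontal) and with it (vertical), with the diagonal of equal change. The MG132 changes share their sign in 30 of 32 genes and the 4OHT changes in 25.

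Whether the 4OHT response differed with and without MG132 was tested as the difference between both responses. For 1 of the 32 genes (3.12%) it was called, where 6.55% of all genes were (2.94% higher, 3.61% lower). Pdk1 rose by 0.88 with 4OHT alone and changed by 0.16 with MG132 present, a difference of -0.72 ± 0.12 (limma, adjusted p = 0.0063; 95% interval -0.98 to -0.46). It was not called with median centring (-0.62, adjusted p = 0.053), with the mean over its probes (-0.55, 0.088) or with slide and replicate as blocks together (-0.60, 0.069). The differences for Adm (-1.95 ± 0.55, 0.068), Ndrg1 (1.11 ± 0.31, 0.066) and Egln3 (-0.87 ± 0.29, 0.12) were larger but not called. Each of these was called with a replicate block and after normexp correction, so their calls depend on the setting. The count of members called was 3 without untreated replicate 3 or MG132 replicate 3, and 2 without untreated replicate 1, 4OHT replicate 1 or 3, or replicate 3 of both compounds. For Slc2a1 the difference was -0.11 ± 0.37, with an interval from -0.95 to 0.72, and for the 13 enzymes the differences lay between -0.40 and 0.37.

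Other genes of the same pathways are given from lists chosen by function. Of 36 measured further glycolytic isozymes, transporters and carriers, 14 fell and 4 rose with MG132, and 13 fell and 9 rose in the presence of 4OHT, shares of 50% and 61.1% against 43.1% and 50.2% of all genes. The monocarboxylate carrier Slc16a3, which exports lactate, fell by 1.88 ± 0.30 (limma, adjusted p = 0.00063) and by 2.04 ± 0.30 (0.00031), and the aldolase Aldoc by 1.79 ± 0.14 and 1.73 ± 0.14. The transporter Slc2a6 rose by 1.56 ± 0.24 (6e-04) with MG132 alone. Gapdhs, the isozyme known from sperm, was not well above background on any untreated or 4OHT array and was at least 3.81-fold and at least 1.66-fold higher with MG132; the bound sets the mean of the bright group against the lowest signal well above background, or the probe's own signal where that is higher. Tigar, a phosphatase that lowers the sugar bisphosphate, rose by 1.98 ± 0.14 (2.8e-06) with MG132 in the presence of 4OHT. With 4OHT alone 4 rose and 10 fell (38.9%, against 28.6% of all genes), among them Slc16a1, a second lactate carrier (0.91 ± 0.15, 0.0014), and the insulin-responsive transporter Slc2a4 (-2.02 ± 0.24, 0.00016). With MG132 present 4OHT raised 5, with Eno2 at 0.94 ± 0.11 and Slc16a1 at 0.93 ± 0.15, and lowered 7, with Slc2a6 at -1.19 ± 0.24 and Pdk2 at -0.85 ± 0.17 (33.3%, against 26.5%). The 4OHT response differed in 2 (5.56%, against 6.55%), Tigar (1.09 ± 0.19, 0.0091) and Eno2 (1.03 ± 0.16, 0.0054).

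Of 44 other measured genes of the HIF pathway and of hypoxia, 21 fell and 9 rose with MG132, and 20 fell and 10 rose in the presence of 4OHT, 68.2% in each, against 43.1% and 50.2% of all genes. Ddit4, an inhibitor of the kinase mTOR that also responds to stresses other than hypoxia, rose by 3.52 ± 0.28 (adjusted p = 9.4e-06) and 3.79 ± 0.28 (4.1e-06). Car12, another carbonic anhydrase, was at least 9.58-fold higher with MG132 alone. No untreated array was well above background for Car12, so it did not pass the filter through the untreated group. The collagen lysyl hydroxylase Plod2 rose by 1.73 ± 0.15 in the presence of 4OHT. Narf (-1.56 ± 0.14) and the transcription factor gene Bhlhe40 (-1.35 ± 0.20) fell most with MG132 alone. In the presence of 4OHT the largest falls were in Epas1, which encodes a second HIF alpha subunit (-1.56 ± 0.14, 1.2e-05), and the growth factor gene Pdgfb (-1.32 ± 0.12). With 4OHT alone 12 rose and 4 fell (36.4%, against 28.6%): Bhlhe40 rose by 0.86 ± 0.20 (0.0079), while the glycogen synthase Gys1 fell by 1.39 ± 0.20 and Zfp395 by 0.83 ± 0.13. With MG132 present 12 rose and 7 fell (43.2%, against 26.5%), with the haem oxygenase Hmox1 at 1.48 ± 0.12 and Zfp395 at -0.87 ± 0.13. The response to 4OHT differed in 6 of these genes (13.6%, against 6.55%), 3 each way, with Epas1 at -1.12 ± 0.19 (0.0084), Pdgfb at -0.69 ± 0.16, Gys1 at 1.17 ± 0.28 and Hmox1 at 0.64 ± 0.16.

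Of 22 genes of the tricarboxylic acid cycle, which burns what glycolysis delivers, 15 fell, 1 rose and 6 were not called with MG132 (72.7% called, median -0.44), and 14 fell, 0 rose and 8 were not called in the presence of 4OHT (63.6%, median -0.36). Over all genes the shares were 43.1% and 50.2% and the medians 0.07 and 0.13. Sdhc, a subunit of succinate dehydrogenase, fell by 1.24 ± 0.08 (limma, adjusted p = 2.4e-06) and 1.35 ± 0.08 (9.2e-07), and the isocitrate dehydrogenase Idh2 by 0.95 ± 0.11 and 1.00 ± 0.11. The citrate synthase Cs was the gene that rose with MG132 alone (0.30 ± 0.08, 0.014). With 4OHT alone 2 rose and 5 fell (31.8% called, against 28.6% of all genes). With MG132 present 4OHT raised 0 and lowered 5 (22.7%, against 26.5%), so both shares are near the background. Of 9 genes of the pentose phosphate pathway, the branch that makes NADPH and ribose, 2 rose and 3 fell with MG132, and 3 rose and 1 fell in the presence of 4OHT (55.6% and 44.4% called). Rpe, an epimerase of that branch, rose by 0.88 ± 0.10 and 0.87 ± 0.10, and Tktl1 was at least 2.74-fold and at least 4.07-fold higher, from groups with no array well above background. G6pdx, the first enzyme of the branch, fell by 0.48 ± 0.17 (0.045) with MG132 and rose by 0.96 ± 0.17 (0.0033) when 4OHT was added to MG132. With 4OHT alone 2 of the 9 rose and 2 fell, and with MG132 present 3 rose and 1 fell. The share called was 44.4% in each, against 28.6% and 26.5% of all genes.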

How the data were processed

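Cy3-labelled cRNA from total RNA was hybridised to Agilent arrays, per the labels' protocols. The authors deposited scanner intensity (Feature Extraction 11.0.1.1). Its processed form, per the file headers, is background-subtracted and not scaled between arrays, and the series-wide values they deposited were identical to it (column medians 21.7 to 33.6, not centred). The log2 processed intensity minus each array's 75th percentile was fitted with limma 3.58.1 in R 4.3.3 (1 mean per group, 12 arrays, 8 residual degrees of freedom, 5 contrasts, Benjamini-Hochberg over 26837 genes, threshold 0.05). Control spots (3671 of 62976) were left out. A probe was kept if all 3 arrays of some group were well above background (34328 of 56605), and the brightest probe stood for a gene. Accessions were matched to RefSeq names of GRCm38.p6, giving 32994 probes (58.3%) a symbol; 23611 had none. Arrays limit the precision by their number, 3 per group.

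The 32 members and all lists were chosen with earlier results of these data known. Array values are given for the up to 3 called members with the largest change per role and comparison, and for Hif1a, Egln1 and Egln3; of other lists, up to 2 called rises and 2 falls were named, and other values were added after seeing them. One gene that this rule names is not reported here. Markers of embryonic stem cells, fibroblasts and primitive endoderm were checked. The fit was tested on simulated data. Alternatives were normexp (offset 50, on median signals), quantile normalization, median centring, other probe filters, the mean over probes, only the groups compared, slide, replicate and leaving out each array. Same-numbered arrays did not deviate together throughout, so the numbers were not taken to pair them. The R packages data.table (1.17.8) and jsonlite (2.0.0) read the files, and plots used Python 3.11.15, numpy 2.4.6, pandas 2.3.3 and matplotlib 3.10.9.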

Additional observations from a re-analysis of the deposited data

Results flagged for a closer look

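The response of Pdk1, the kinase that inhibits pyruvate dehydrogenase, to 4OHT differed between cells with and without MG132 by -0.72 ± 0.12 on the log2 scale (limma's test of the difference itself, adjusted p = 0.0063). The 4OHT arrays lay above the untreated arrays in 3 of 3 (4.68, 4.71 and 4.70 against 3.75 to 3.91), and the group means with MG132 differed by 0.16. It was 1 of 32 members called (3.12%), where 6.55% of all genes were. The difference was not called with median centring (-0.62, adjusted p = 0.053), with the mean over probes (-0.55, 0.088) or with slide and replicate block together (-0.60, 0.069).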

How the results depend on the processing

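Of 64 calls in members, 64 were kept with a replicate block and with the series-wide values, 63 with normexp, 60 with quantile normalization, 59 with median centring and with no filter, 62 of 62 with a filter on all 12 arrays, 57 of 63 with only the groups compared, 54 with the mean over probes, 50 with slide and replicate block together (added after seeing the data), 46 with slide as a block, 28 of 40 within a slide and 59 to 63 without 1 array.

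Members called for 4OHT with MG132 present (11) numbered 5 with slide as a block, 2 within slide 2 and 4 with slide and replicate block together. For MG132 in the presence of 4OHT (23), slide as a block gave 13. For the difference of responses (1), normexp gave 4, quantile normalization 2, median centring 0, the mean over probes 0, the filter on all 12 arrays 2 and the replicate block 4 (Pdk1 at an adjusted p of 0.0075, Ndrg1 at 0.011, Adm at 0.037 and Egln3 at 0.043, of which normexp also called all). Same-numbered arrays correlated, in deviations from group means, at -0.06 to 0.16, 0.07 to 0.15 and 0.12 to 0.41 for numbers 1, 2 and 3, and 0, 0 and 4 arrays correlated best with their own number; the replicate block otherwise gave 13, 25, 15 and 24 members called, in place of 9, 20, 11 and 23. The cause of these changes was not tested.

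The enzymes' median with 4OHT (0.17) was 0.06 with normexp, 0.05 with quantile normalization and 0.00 with median centring, and with MG132 present (0.08) -0.08 with quantile normalization. With MG132 (-0.68) it was -1.03 and in the presence of 4OHT (-0.67) -0.92 with median centring. The other members' median with 4OHT (0.17) was -0.01 with median centring, with MG132 (-0.44) -0.35, -0.34 and -0.79 with normexp, quantile normalization and median centring, and in the presence of 4OHT (-0.52) -0.77 with median centring and -0.71 with slide and replicate block together. Median centring moved the median of all genes by -0.18, -0.35 and -0.24 (4OHT, MG132, MG132 with 4OHT present). Normexp moved it by 0.13 with 4OHT, -0.12 for MG132 with 4OHT present and -0.11 for the difference, and quantile normalization by -0.11 with MG132.

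Without 1 array, members called ranged from 7 to 14, 18 to 22, 8 to 12, 21 to 24 and 1 to 3 (4OHT, MG132, 4OHT with MG132 present, MG132 with 4OHT present, difference). The enzymes' medians ranged from 0.09 to 0.19, -0.70 to -0.66, 0.05 to 0.12, -0.76 to -0.59 and -0.10 to 0.01, and the other members' from 0.16 to 0.28, -0.45 to -0.39, 0.13 to 0.20, -0.54 to -0.47 and -0.28 to 0.01. Car9 reversed with the mean over probes, to -0.58 with MG132 (adjusted p = 0.0044) and -0.39 with 4OHT present (0.027).

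Genes called in all numbered 14466 with no filter and 5072 with only the groups compared for 4OHT (7666 otherwise). With MG132 present (7108) they numbered 2986 with slide as a block, 2090 within slide 2 and 2312 with slide and replicate block. For MG132 with 4OHT present (13481) the counts were 5337 and 4833, and for the difference (1759) 802 and 804. Median centring gave 41.0% higher for 4OHT with MG132 present (52.4% otherwise) and 59.9% for the difference (44.9%). Adm could not be tested with the filter on all 12 arrays, and dim genes such as Adm are the least certain in size.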
